A study of Drosophila melanogaster with 6 samples.

Results

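The cuticle protein genes described here were the rows of the deposited table whose gene name begins with Cpr, Ccp, Lcp, Acp65, Twdl or Cpap. The prefixes took 100 of 13541 genes. One of them, the row named exactly Cpr, encodes NADPH-cytochrome P450 reductase, a membrane enzyme that passes electrons to cytochrome P450s. It is not a cuticle protein, and it is left out of the counts below. Its mean was 8137 in the mutant and 7796 in the control, and the authors' deposited table lists it at a log2 fold change of 0.06 (adjusted p = 0.975). The other 99 genes comprised 82 of the CPR family, named for the Rebers and Riddiford consensus, and 17 Tweedle genes. No row began with Cpap.

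The insect cuticle is a layered extracellular coat of chitin fibres embedded in protein, secreted by the epidermis. CPR proteins bind chitin through the Rebers and Riddiford domain, and different members are laid down in larval, pupal and adult cuticle and in its inner and outer layers. Tweedle proteins are a separate family of cuticle proteins in insects, and dominant mutations in some of them make the fly body short and thick. In the head, cuticle forms the capsule, the bristles, the mouthparts and the transparent corneal lenses over the photoreceptors.

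RNA from heads of adult Drosophila melanogaster was sequenced in 2 genotypes, 3 samples each. The mutant samples are labelled as miR-210 mutant, and their column is headed M22_3. miR-210 is a microRNA, a short RNA that guides silencing complexes to messenger RNAs. The controls are w1118, a laboratory strain with white eyes. The sources used here do not give the allele, the age and sex of the flies or the number of heads per sample, and mir-210 itself was not analysed here. Whether samples were collected from separate flies is not stated, and p-values then measure only how far these samples spread, which may be technical.

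All values are normalized counts, which are reads divided by a size factor of the library. Group means are the authors'. The values of single libraries were recovered from these means as sums of whole reads, for all 100 genes. These libraries have no replicate number here and are called deepest, middle and shallowest within their group. Their size factors were 0.973, 0.826 and 0.672 in the mutant and 1.72, 1.08 and 1.00 in the control, with 6262442 to 16477099 reads in recovered genes per library. The deepest library of each group stood apart from the others of its group, as described for the members below. Neuronal and photoreceptor markers were present in both groups, among them elav (mutant mean 722, control mean 1094) and ninaE (185443 and 590062). The 5 genes listed here as epidermis markers (Cyp4g1, sha, ovo, grh and bond) summed to 2031 to 3183 in mutant libraries and 2241 to 2650 in control ones. In both groups 0 of them had a mean of 0. The largest part of the sum was bond (means of 1514 and 1488), and whether the sum measures the epidermis was not tested. A lower level in these bulk samples can come from fewer cells of a type or from less RNA per cell, and these cannot be told apart.

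The genes are short and clustered. Their median length in the deposited annotation was 890 bases, against 1892 bases for the 11862 protein-coding genes of the table. In the reference annotation (BDGP6), which holds all 100 rows at the same start, end and strand, 73.7% had at most 2 exons, against 31.5% of protein-coding genes. It gives no coding sequence for Lcp1Psi or TwdlU, which are kept in the counts here. The deposited annotation carries the chitin-binding domain note Chitin_bind_4 for 81 of the 82 CPR genes and 0 of the 17 Tweedle genes. Taking neighbours under 50 kb apart, 74 of the 99 genes lay in 15 runs of 3 or more. The longest run in members spans 31.2 kb on 3L, from 6130386 to 6161589, and holds 16 genes, from Lcp65Ag3 to Cpr65Az.

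Expression in the adult head was concentrated in few members. The 8 genes with a mean of at least 1000 in either group held 86.0% of the summed cuticle level in the mutant and 82.0% in the control. At the other end 20 genes stayed below a mean of 1 in both groups, and 34 lay from 1 to 10. Per kilobase of gene length, Cpr65Au was first, with 12207 normalized counts per kb in the mutant and 10176 in the control. The libraries of Cpr65Au ran from 6067 to 14030 per kb and overlapped those of the next gene, Cpr72Ec, which was above it in the deepest mutant library (11481 against 8704 per kb). Cpr72Ec followed with 6940 and 4317, and Cpr67B with 4433 and 5008. The libraries of Cpr72Ec (3055 to 11481 per kb) and Cpr67B (4123 to 5270 per kb) overlapped, so their order is not fixed beyond that spread. Cpr49Ae and Cpr49Ag came next at 1945 and 2269 per kb in the mutant and 1887 and 1551 in the control, also with overlapping libraries.

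**Figure D1:**
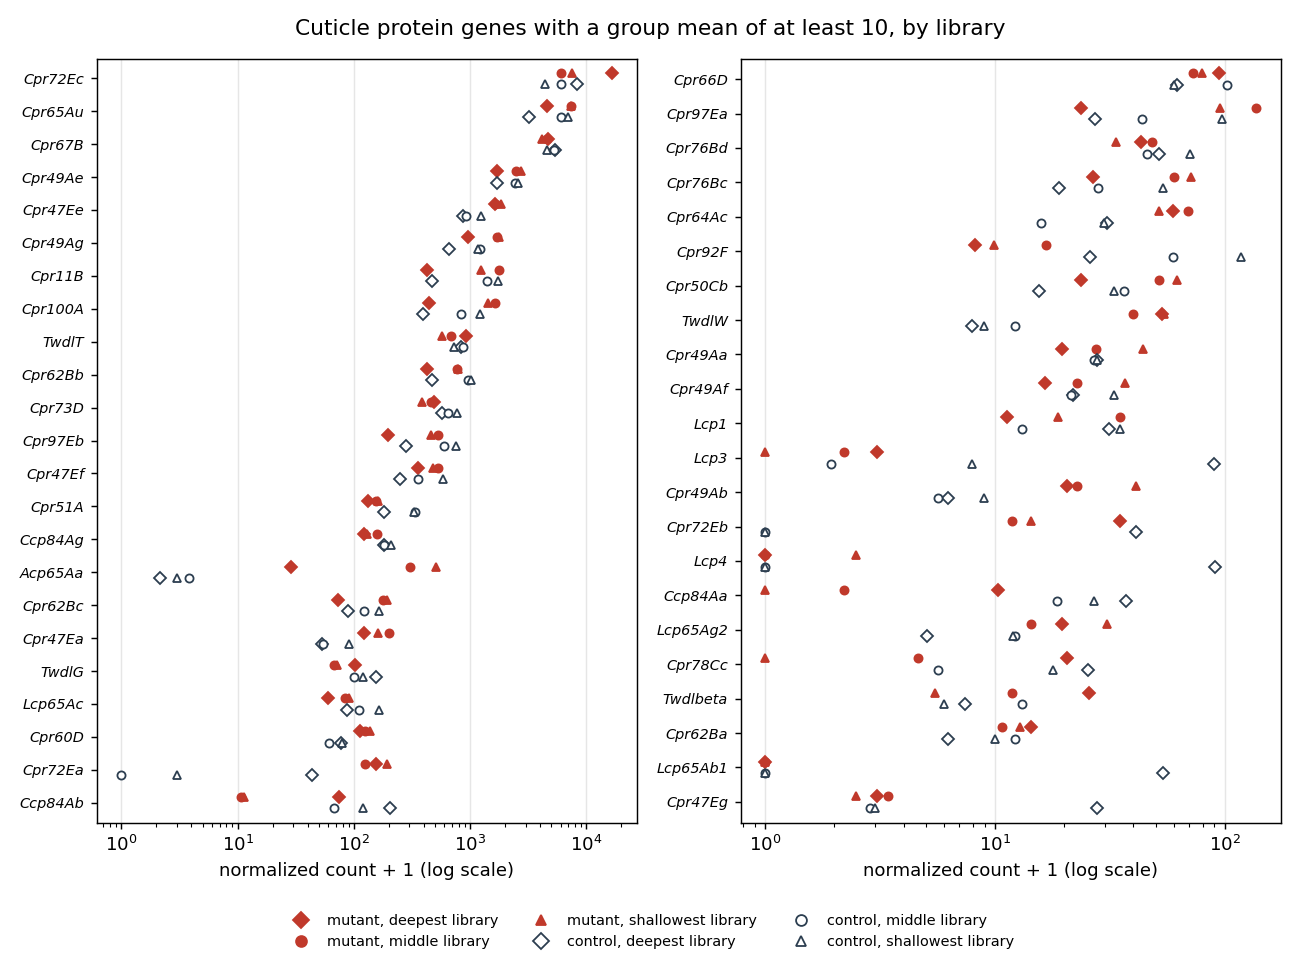
Normalized counts plus 1 (log scale, horizontal) of the 45 cuticle protein genes with a mean of at least 10 in either group, 1 row per gene, ordered by mean level. Filled red symbols are the 3 mutant libraries and open symbols the 3 control libraries; diamonds, circles and triangles are the deepest, middle and shallowest library of each group. Acp65Aa and Cpr72Ea have all mutant libraries far right of most control libraries, and Lcp4 and Lcp65Ab1 have a single high control library.

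The comparison asks which of these transcripts differ between mutant and control heads. Of the 99 genes, 60 had an adjusted p-value from the authors, and 7 of these were called at an adjusted p under 0.05, where 4.46% of all tested genes were called. In mutant heads 6 rose (2.56% of tested genes rose) and 1 fell (1.89% fell). The genes that rose were Acp65Aa, TwdlW, Cpr49Ab, Cpr47Ea, Cpr64Ac and Cpr47Ee, and the gene that fell was Cpr92F. The other 39 genes have no adjusted value, and all of them but Lcp4 and Lcp65Ab1 had means under 10 in both groups, so these shares are of tested members and not of the family. The median log2 fold change of the 60 tested members was -0.03, beside -0.04 over all tested genes, and 29 were positive and 31 negative.

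**Figure D2:**
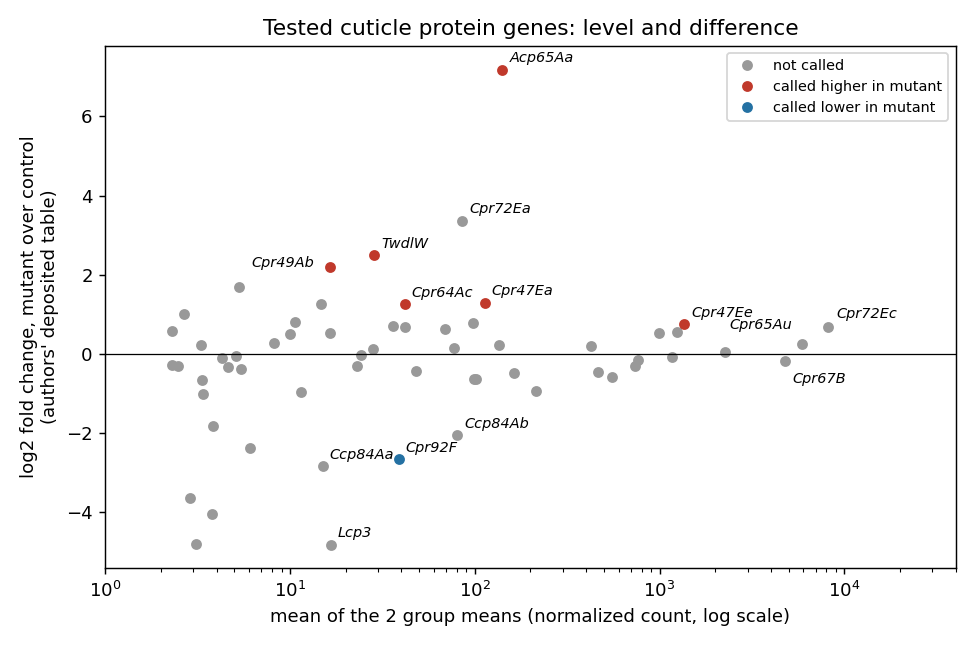
Log2 fold change, mutant over control, in the authors' deposited table (vertical) against the mean of both group means (normalized count, log scale, horizontal) for the 60 tested cuticle protein genes. Red points rose, the blue point fell and grey points were not called. The 8 genes with a mean of at least 1000 in either group run from -0.18 (Cpr67B) to 0.76 (Cpr47Ee), with a median of 0.39. Acp65Aa (7.18) stands far above the rest.

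Acp65Aa changed most. It encodes a protein of adult cuticle and lies within the 65A run, on 3L from 6152050 to 6152745 (minus strand, BDGP6), with 2 exons. Its normalized counts were 27.7, 305 and 507 in the deepest, middle and shallowest mutant libraries, against 1.16, 2.79 and 1.99 in those of the control. Every mutant library was above every control library, but the mutant libraries themselves ranged widely. The means were 280 ± 241 (SD, n = 3) and 1.98 ± 0.815 (SD, n = 3), and the mutant mean was 166 once its shallowest library was set aside. The authors' deposited table gives it a log2 fold change of 7.18 (adjusted p = 2.15e-10). The mutant was 23.9-fold higher between the deepest libraries and 170-fold higher between the means of the other libraries.

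TwdlW, a Tweedle gene on 3R (17141208 to 17142404, minus strand), rose with less spread. Its levels were 52.4, 38.7 and 53.6 in the mutant and 6.97, 11.2 and 7.97 in the control, so the groups stood well apart. Means were 48.2 ± 8.26 and 8.70 ± 2.19 (SD, n = 3), 5.54-fold higher in the mutant, with a log2 fold change of 2.49 in the authors' deposited table (adjusted p = 4.20e-06). The other 5 Tweedle genes that were tested were not called. The most abundant one, TwdlT, had means of 726 and 807 (-0.15 in the authors' deposited table, adjusted p = 0.939), and TwdlG had 79.1 and 124 (-0.64, adjusted p = 0.422). Of the 17 Tweedle genes, 6 were tested, and the other 11 had means under 3 in both groups.

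A pair of genes of the 47E run on 2R rose together. Cpr47Ea (11251751 to 11253398, minus strand) had 120, 201 and 161 in the mutant libraries, against 52.3, 53.0 and 90.7 in those of the control, a log2 fold change of 1.3 in the authors' deposited table (adjusted p = 0.0125). Cpr47Ee (11265126 to 11266856, plus strand), the most abundant of the called genes, had 1625, 1641 and 1839 against 872, 914 and 1233, a log2 fold change of 0.76 (the authors' deposited table, adjusted p = 0.0184). The groups did not overlap in either gene. An exon of Cpr47Ea overlaps the odorant receptor gene Or47a on the opposite strand (means of 35.7 and 20.4; 0.78 in the authors' deposited table, adjusted p = 0.626), and without strand information reads of these genes may not be separable. Between these genes lie Cpr47Eb and Cpr47Ec, which had at most 7.26 in any library and were not called. Cpr47Ef, on the far side of Cpr47Ee, had means of 454 and 396 (0.20 in the authors' deposited table, adjusted p = 0.946).

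The remaining genes that rose were at lower levels. Cpr49Ab, on 2R from 12378440 to 12379396 (plus strand), had 19.5, 21.8 and 40.2 in the mutant libraries, against 5.23, 4.65 and 7.97 in those of the control. Its log2 fold change was 2.19 in the authors' deposited table (adjusted p = 0.00903). Its neighbours of the 49A run, Cpr49Aa (means of 29.4 and 26.6) and the abundant Cpr49Ae (2307 and 2238), were not called (the authors' deposited table, adjusted p = 0.977 and 0.987). Cpr64Ac, on 3L from 4211964 to 4212915 (minus strand), had 58.6, 67.8 and 50.6 against 29.6, 14.9 and 28.9, with a log2 fold change of 1.26 (the authors' deposited table, adjusted p = 0.0409). The mutant libraries of both genes lay above all control libraries.

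Cpr92F, on 3R from 20669571 to 20672821 (plus strand), was the member that fell. It had 7.19, 15.7 and 8.93 in the mutant libraries, against 25, 58.6 and 117 in those of the control. The groups did not overlap, but the control libraries differed among themselves by more than the gap to the mutant. The means were 10.6 ± 4.51 and 66.7 ± 46.3 (SD, n = 3), and the control mean was 41.8 once its shallowest library was set aside. The authors' deposited table gives it a log2 fold change of -2.65 (adjusted p = 0.00512).

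**Figure D3:**
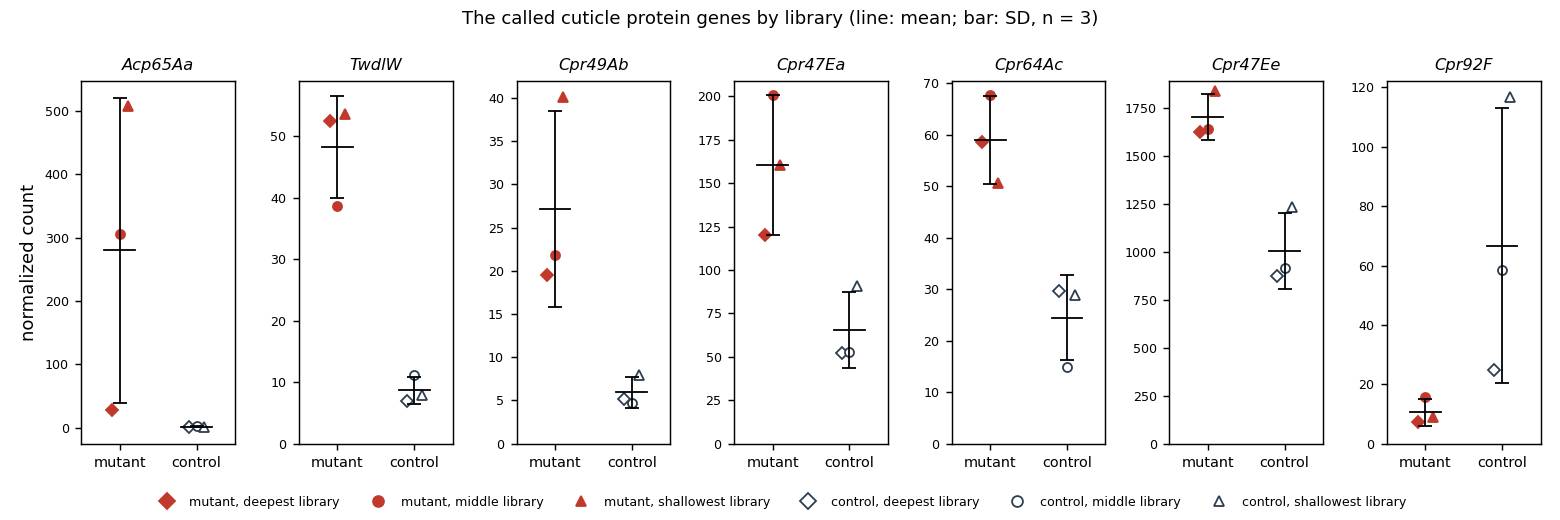
Normalized counts (vertical, 1 linear axis per gene) of the 7 called cuticle protein genes in each mutant (filled red) and control (open) library, with the mean as a line and the SD as a bar (n = 3). No gene has overlapping groups; the deepest mutant library of Acp65Aa (27.7) is far below the other mutant libraries, and the control libraries of Cpr92F run from 25 to 117.

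limma on the recovered libraries, a second fit to the same reads on log2(normalized count + 1), called TwdlW alone among the 72 members it tested (adjusted p = 0.0255; 0.992% of all genes were called). Acp65Aa had an adjusted p of 0.0673 in it, and the other 5 from 0.105 to 0.182. When being the deepest library was made a term of the model, limma called 16 members, among them all 7 of the authors' calls, where 16% of all genes were called. Of these 9 were higher (7.05% of all genes) and 7 lower (8.95%).

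Between individual libraries, 10 of the 60 tested members had every mutant library above every control library (9.1% of tested genes with recovered libraries did) and 5 had every mutant library below (9.21% did). Beside the called genes these included Cpr72Ea, Cpr60D, Lcp65Ag2 and Cpr64Aa among the higher, and Ccp84Aa, Cpr51A, Cpr73D and Ccp84Ag among the lower. At an unadjusted p under 0.05 there were 15 members (12% of tested genes), 8 with positive and 7 with negative fold changes. Cpr60D had 112, 125 and 135 in the mutant and 76.7, 59.5 and 77.7 in the control, a log2 fold change of 0.79 that narrowly missed the threshold in the authors' deposited table (adjusted p = 0.0520). Cpr51A had 131, 152 and 161 against 181, 332 and 331 (-0.93 in the authors' deposited table, adjusted p = 0.0916). The deepest control library was nearest to the mutant. Cpr73D, a long member with 5 exons, had 490, 457 and 382 against 570, 645 and 772 (-0.58 in the authors' deposited table, adjusted p = 0.161). An exon of Cpr73D overlaps Ogdh on the opposite strand, at means of 19237 and 17759.

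Cpr72Ea had the largest positive fold change among members that were tested and not called. It stood at 153, 123 and 192 in the mutant libraries. In the control it had 43.0 in the deepest library, 0 in the middle and 1.99 in the shallowest. The groups did not overlap, and the authors' deposited table gives 3.37 on the log2 scale (adjusted p = 0.415). limma did not call it with all libraries (adjusted p = 0.187) or with the term for the deepest libraries (adjusted p = 0.0818). It called Cpr72Ea without the deepest library of each group (adjusted p = 0.00102; 6.56% of all genes were called), which leaves out the control library that held nearly all of its control level. Its neighbour Cpr72Eb had the same feature in the control, with 40.1 in the deepest library and 0 in both others, but overlapping mutant libraries (33.9, 10.9 and 13.4).

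The third gene of that run, Cpr72Ec, is a protein of the corneal lens. Its libraries held 16613, 6026 and 7488 in the mutant and 8282, 6040 and 4420 in the control, and they overlapped. The log2 fold change of 0.68 was not called in the authors' deposited table (adjusted p = 0.677). The mutant mean was 10042, and 6757 without its deepest library, beside a control mean of 6247. The other 3 lens genes examined were not called either. Cpr66D had means of 81.3 and 73.7 (0.15 in the authors' deposited table, adjusted p = 0.960), and retinin, outside the prefixes, 58552 and 57304 (0.03, adjusted p = 0.992). Crys, which encodes crystallin and also lies outside the prefixes, had 296, 616 and 492 in the mutant and 677, 670 and 998 in the control. Every mutant library of Crys was below every control library (-0.74 in the authors' deposited table, adjusted p = 0.348). Beside these genes, photoreceptor markers were lower in the mutant, with 4 of 5 called (trp, chp, ninaE and ninaC), where 1.89% of tested genes fell. Libraries of these 4 genes were not recovered. The mutant libraries of the other marker, norpA, had 7299, 3366 and 2302, deepest first. The part of the photoreceptor markers in the values of lens genes was not tested.

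The genes named for larval cuticle proteins (Lcp) were mostly low. Lcp1 to Lcp4 encode the main proteins of third-instar larval cuticle. Of the 15 genes, 9 were tested and 0 were called in the authors' deposited table (4.46% of all tested genes were). At an unadjusted p under 0.05 there was 1 (12% of tested genes), and limma called 0 (0.992% of all genes). Several Lcp genes had nearly all their level in 1 control library. Lcp4 had 89.4 in the deepest control library and 0 in the other control libraries, against 0, 0 and 1.49 in the mutant. Lcp65Ab1 had 52.8 in the deepest control library, which is 91 reads, and 0 reads in the other 5 libraries. These genes have no p-value in the authors' deposited table. Against the limit set by 3 reads over the mutant group, a mean of 1.21, the control mean of Lcp65Ab1 (17.6) was at least 14.5-fold higher, but that mean rests on the deepest control library.

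Lcp3 had 88.3, 0.930 and 6.97 in the deepest, middle and shallowest control libraries and 2.06, 1.21 and 0 in the mutant libraries. The middle control library was below the deepest mutant library, so the groups overlapped, and the log2 fold change of -4.81 was not called in the authors' deposited table (adjusted p = 0.0569). Lcp2, Lcp9 and Lcp65Ab2 had 13.4, 20.3 and 18.6 in the deepest control library and at most 2.79 elsewhere. Cpr47Eg showed the same shape, with 26.7 there and at most 2.42 in any other library. In all, 9 of 52 members with a control mean of at least 5 had over 70% of their summed control level in the deepest library, as did 1.15% of all such genes. This count was made after the values were seen. Summed over the 15 Lcp genes the level was 425 in that library, 149 and 224 in the other control libraries and 96.6 to 153 in the mutant libraries.

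Lcp65Ac and Lcp1 made up most of the Lcp level in the other libraries. Lcp65Ag2, described below, had a mutant mean of 20.5, near that of Lcp1 (20.7). Lcp65Ac had 58.6, 83.5 and 89.3 in the mutant and 86.5, 111 and 164 in the control (-0.64 in the authors' deposited table, adjusted p = 0.536). Lcp1 had 10.3, 33.9 and 17.9 against 30.2, 12.1 and 33.9 (-0.30 in the authors' deposited table, adjusted p = 0.954). Without Lcp65Ac and Lcp1 the Lcp sum was 308 in the deepest control library and 25.9 to 35.7 in the other 5. Lsp1alpha, which encodes a larval serum protein, was also highest in the deepest control library, at 29.0 against 1.86 and 1.99 in the other control libraries and at most 2.42 in the mutant. Among the other 5 genes of the larval serum list, Fbp2 was also highest there, at 6.97 against 1.86 and 3.99 in the other control libraries and at most 1.21 in the mutant. Lsp1gamma was highest there among control libraries (29.6, 12.1 and 3.99), but it reached 50.6 in the shallowest mutant library, and Fbp1 had 10.5, 12.1 and 4.98 in the control. Lsp2 and Lsp1beta rose in the mutant (5.23 and 3.38 in the authors' deposited table, adjusted p = 3.09e-11 and 2.40e-05). The part of these values in the Lcp result was not tested. Lcp65Ab1 and Lcp65Ab2, and Lcp65Ag1, Lcp65Ag2 and Lcp65Ag3, are close copies of each other, and the sources used here do not say how reads with several matches were counted.

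**Figure D4:**
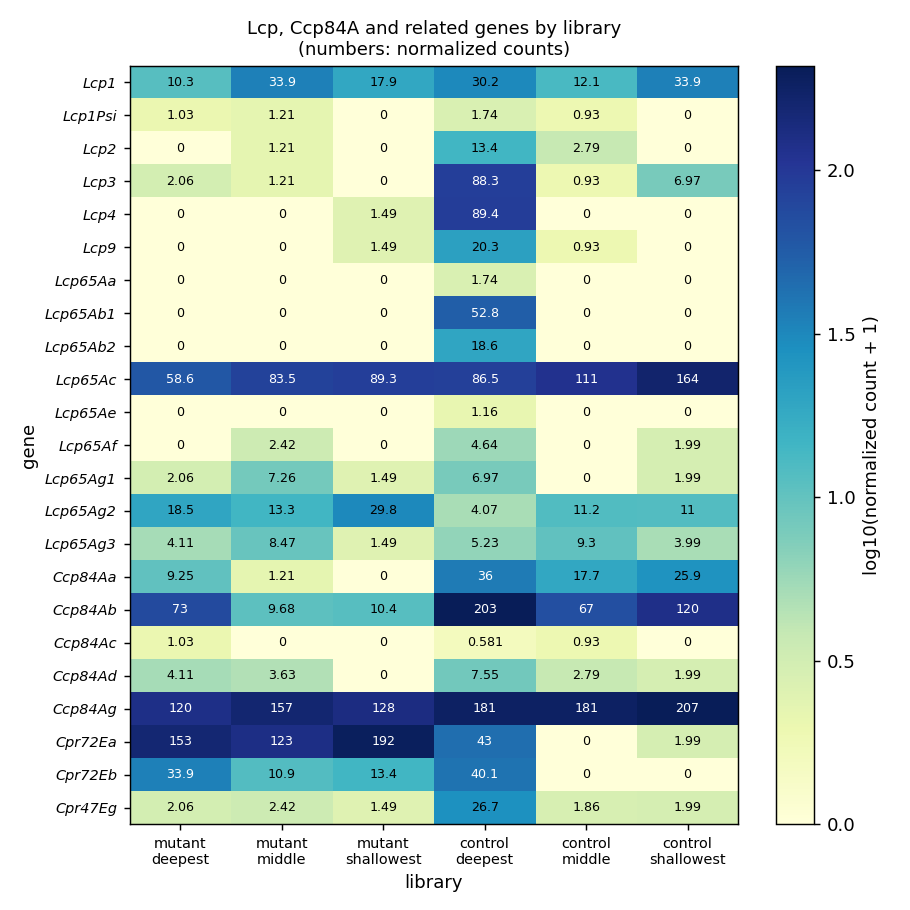
Heat map of log10(normalized count + 1) in the 6 libraries (columns) for the 15 Lcp genes, the 5 Ccp84A genes, and Cpr72Ea, Cpr72Eb and Cpr47Eg (rows), with normalized counts printed in each cell. Lcp2, Lcp3, Lcp4, Lcp9, Lcp65Ab1, Lcp65Ab2 and Cpr47Eg have 13.4 to 89.4 in the deepest control library and at most 6.97 in any other. Lcp65Ac and Ccp84Ag have 58.6 or more in every library.

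The Ccp84A genes, a cuticle gene run of 18.2 kb on 3R, had no member past the adjusted threshold. Of 5 genes 4 were tested and 0 were called (4.46% of all tested genes were). An unadjusted p under 0.05 was found for 3 (12% of all tested genes), all with negative fold changes. limma called 0 (0.992% of all genes), and 2 with the term for the deepest libraries (16% of all genes). Ccp84Aa had 9.25, 1.21 and 0 in the mutant libraries, against 36.0, 17.7 and 25.9 in those of the control, with no overlap (-2.84 in the authors' deposited table, adjusted p = 0.0518). Ccp84Ab had 73.0, 9.68 and 10.4 against 203, 67.0 and 120, and its deepest mutant library lay above the middle control library (-2.05 in the authors' deposited table, adjusted p = 0.165). Within each group the deepest library was the highest for both genes. Ccp84Ag was steadier, at 120, 157 and 128 against 181, 181 and 207 (-0.49 in the authors' deposited table, adjusted p = 0.339). The median log2 fold change of the 4 tested genes was -1.36.

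**Figure D5:**
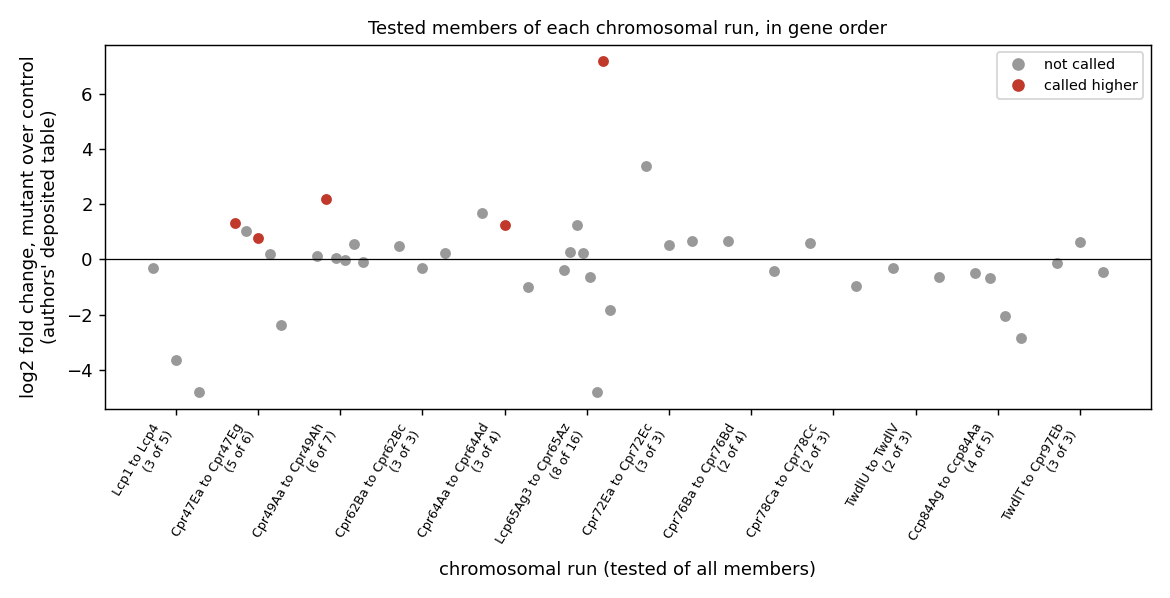
Log2 fold change, mutant over control, in the authors' deposited table (vertical) for tested members of the 12 chromosomal runs that have any, in gene order within each run, with the number tested of all members below. Red points are called. All 4 tested Ccp84A genes lie below 0. The 65A run spreads from -4.79 (Lcp65Ab2, with reads only in the deepest control library) to 7.18.

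Members of the run at 65A differed in level and in fold change. Of its 16 genes 8 were tested and 1 rose (2.56% of all tested genes rose). The log2 fold changes in the authors' deposited table ran from -4.79 (Lcp65Ab2) to 7.18 (Acp65Aa). The value of Lcp65Ab2 is fitted to 0 mutant reads and to 32 control reads, all in the deepest control library (the authors' deposited table, adjusted p = 0.682). Cpr65Au, the most abundant member per kilobase, had 4578, 7380 and 7305 in the mutant libraries, against 3191, 5991 and 6876 in those of the control (0.26 in the authors' deposited table, adjusted p = 0.928). Lcp65Ag2 had 18.5, 13.3 and 29.8 against 4.07, 11.2 and 11, with no overlap (1.26 in the authors' deposited table, adjusted p = 0.425). Its namesakes Lcp65Ag1 (2.99 in the control) and Lcp65Ag3 (6.17) had means under 5 in the mutant.

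The summed level of the 99 genes was 35005, 32275 and 32997 in the mutant libraries, against 25215, 28991 and 29693 in those of the control. Without Cpr72Ec, the largest single contributor, it was 18392, 26249 and 25509 against 16933, 22952 and 25273, and the groups overlapped. Cpr49Ag was among the abundant genes with higher values in the mutant, at 949, 1696 and 1779 against 653, 1215 and 1157, but its libraries overlapped and it was not called (0.55 in the authors' deposited table, adjusted p = 0.689). Among members from 100 to 1000, the authors' deposited table has Cpr62Bb at -0.30 (adjusted p = 0.918) and Cpr97Eb at -0.46 (adjusted p = 0.882).

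Several members varied more between libraries of a group than between genotypes. Cpr11B had 424 in the deepest mutant library and 1764 and 1230 in the others, and in the control 470 against 1389 and 1733. Cpr100A had 444, 1631 and 1428 in the mutant and 391, 837 and 1204 in the control, and Cpr97Ea 22.6, 136 and 93.7 against 26.1, 42.8 and 95.7. In each of these genes the deepest library was the lowest in both groups. Of 42 tested members with a mean of at least 10, 27 were lower in the deepest mutant library than in the mean of the other mutant libraries, 28 in the deepest control library, and 22 in both. Over all 9409 such genes, 51.4% were lower in the deepest mutant library and 51.6% in the deepest control library. The share lower in both is not given here for all genes. The median log2 ratio, deepest over others with 1 added to each value, was -0.25 in the mutant and -0.38 in the control, and -0.03 in both groups over all 9409 such genes. The 5 genes listed as epidermis markers summed to 3183, 2102 and 2031 in the mutant and to 2650, 2348 and 2241 in the control, deepest library first. In the control their largest part, bond, was lowest in the deepest library (1122, 1753 and 1590). The 6 neuronal markers summed to 20996, 9238 and 7036 in the deepest, middle and shallowest mutant libraries, and to 37206, 13780 and 13884 in those of the control. The hemocyte list and the list of ecdysone response genes were also highest in the deepest library of both groups. So was the sum of the 3 fat body genes with recovered libraries, at 8994, 778 and 1976 in the mutant and 4548, 1830 and 1249 in the control. The gene to made up most of that sum in the deepest libraries (8382 in the mutant and 4518 in the control). Lsp2 was highest in the shallowest mutant library (1068), and Fbp1 in the middle library of both groups (4.84 and 12.1). The tanning list was highest in the deepest library of both groups too, but only narrowly in the mutant (33753, 33730 and 32973). Muscle, trachea, gut, chorion and larval serum lists were not. The part of these lists in the spread of the cuticle genes was not tested. Cpr67B was even across libraries, at 4714, 4553 and 4164 in the mutant and 5323, 5242 and 4609 in the control (-0.18 in the authors' deposited table, adjusted p = 0.838).

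Genes outside the prefixes that build, colour or regulate cuticle are given for comparison, against the 2.56% of tested genes that rose and 1.89% that fell. Of 17 tested genes of chitin synthesis and assembly, among them the chitin synthase gene kkv, 0 were called in the authors' deposited table, with a median log2 fold change of 0.16. In that list 1 gene had an unadjusted p under 0.05 (12% of tested genes did), and limma called 0 (0.992% of all genes). Of 16 tested chitinases and their relatives 2 rose, with a median of 0.40. They were Idgf4 (0.79 in the authors' deposited table, adjusted p = 0.0272) and Idgf5 (0.81, adjusted p = 0.0471), which encode chitinase-like growth factors. In that list 5 genes had an unadjusted p under 0.05 (12% of tested genes did), and limma called 0 (0.992% of all genes). Idgf4 has no recovered libraries and was not tested by limma. Among 22 tested tanning and pigment genes 1 rose and 2 fell, with a median of -0.25. An unadjusted p under 0.05 was found for 6 of them (12% of tested genes), and limma called 1 (0.992% of all genes). The gene yellow (y), needed for black melanin, had 88.4, 113 and 119 in the mutant and 369, 286 and 361 in the control, a log2 fold change of -1.67 (the authors' deposited table, adjusted p = 5.96e-09). Its relative yellow-d2 also fell in the authors' deposited table (-1.45, adjusted p = 0.00535) and yellow-c rose (1.10, adjusted p = 0.00446).

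Of 21 tested genes for other structural proteins of the cuticle 2 rose, with a median of 0.03. An unadjusted p under 0.05 was found for 3 of them (12% of tested genes), and limma called 1 (0.992% of all genes). Edg91, an ecdysone-dependent cuticle gene, had 308, 543 and 591 in the mutant and 148, 178 and 234 in the control (1.37 in the authors' deposited table, adjusted p = 0.00399). mey, which encodes an apical membrane protein with a zona pellucida domain, had 19.5, 30.3 and 20.8 against 0.581, 0 and 1.99 (4.88 in the authors' deposited table, adjusted p = 1.06e-04). Of 21 tested genes of the ecdysone response and of moulting 2 rose, with a median of -0.17. An unadjusted p under 0.05 was found for 4 of them (12% of tested genes), and limma called 0 (0.992% of all genes). Eh, the gene of eclosion hormone, which triggers the shedding of the old cuticle, had 206, 270 and 283 in the mutant and 15.1, 62.3 and 55.8 in the control (2.52 in the authors' deposited table, adjusted p = 8.90e-05). ImpL2, which encodes a secreted insulin-binding protein, rose by 0.63 in the authors' deposited table (log2, adjusted p = 0.0177). In each of Edg91, mey, Eh and y the groups did not overlap. Outside the prefixes, 10 genes carry the Chitin_bind_4 note, and genes of the lists above were not taken out of this set. Of these 7 were tested. The authors called 0 of them (4.46% of all tested genes were called), and limma called 0 (0.992% of all genes). An unadjusted p under 0.05 was found for 1 (12% of all tested genes), with a negative fold change. The median log2 fold change of the 7 was -0.54 in the authors' deposited table, beside -0.04 over all tested genes. The fold change was negative in 6 of them and positive in 1.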

How the data were processed

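Heads of adult flies of 2 genotypes were profiled, 3 samples each. Per the submitters' processing notes, FastQC, HISAT2, featureCounts, DESeq and build dm6 were used, without roles or versions; strandedness and gene filters are not stated. The deposited table gives, per the file headers, a mean signal per group (read counts divided by size factors, by the authors), the authors' fitted log2 fold change (mutant over control), and p-values of the authors before and after adjustment. It has no columns of single samples, so the main results are calls of the authors (adjusted p under 0.05) and no count test was run. Adjusted values matched Benjamini-Hochberg over 11155 genes with a largest difference of 3.85e-15; a further 2386 genes stand at 1 and were treated as not tested, 23 of them without a p-value.

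A mean adds up 3 library counts of whole reads, each times the step of its library. The steps were read from low means, and every mean up to 10000 (20000 for members) was searched. Exactly 1 solution was found for 13194 of 13194 mutant and 13225 of 13225 control means, with an error of at most 8.5e-11 reads, giving 13170 genes (97.3%) in all 6 libraries. In simulated means, 100% of 3000 per group were recovered. In R 4.3.3, limma 3.58.1 (trend, robust) was fitted to log2(normalized count + 1) where a gene's mean reached 1, adjusted over all genes, and was tested on simulated data. The simulated libraries of a group differed only in depth and by random spread, so that test does not cover the difference of the deepest libraries. Python 3.11.15 was used otherwise.

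Members named are those called, the 5 highest per kilobase, the 5 largest changes not called with a mean of at least 10, those with an unadjusted p under 0.05 (at most 10), and Cpr; others were chosen after their values were seen. The members and gene lists were chosen with earlier results of these data known. Alternatives tried were other thresholds, pseudocounts, filters, scalings, the deepest library as a term or left out, and each library left out in turn. Sequences were not used here.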

Additional observations from a re-analysis of the deposited data

How the results depend on the processing

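The counts of 6 members higher and 1 lower in the mutant became 3 and 1 at an authors' adjusted p under 0.01, and 7 and 4 under 0.1. limma, which tested 72 of the 99 members (99 with no filter, 43 with a minimum mean of 10), called 1 higher and 0 lower with all libraries, with a pseudocount of 5, with no filter, with a minimum mean of 10, with libraries scaled to equal totals and with TMM factors, TwdlW each time. With a term for being the deepest library it called 9 higher and 7 lower, and with these libraries left out 7 higher and 5 lower (2.91% and 3.66% of all genes). Leaving out each library in turn gave 0 to 1 higher and 0 lower: Acp65Aa without the deepest mutant library, Cpr72Ea without the deepest control library, and none otherwise. The median log2 fold change of tested members, -0.03, was 0.17 for members with a mean of at least 10, by the authors' values and by limma. It ranged from -0.13 to 0.15 as each library was left out in limma, and with the other limma settings it moved by less than 0.19, the SD of the median between mutant libraries. The cause of these differences was not tested. Over 22 named members and 14 limma settings no called fold change turned its sign. The groups did not overlap in any gene called by the authors, so leaving out a library could not turn it. Some members that were not called did turn. Lcp4, at -5.97 in the authors' deposited table, was 0.66 in limma with the deepest libraries left out. Cpr65Au, at 0.26, was -0.03 without the deepest control library.

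No paired analysis was possible because the deposited columns carry no replicate numbers. The alternative that leaves out members with near-identical proteins was not run, as protein sequences were not used here. Depth limits the low members: 3 reads over the group correspond to 1.21 for the mutant mean and 0.789 for the control mean, and 8 to 38 of the 99 genes had no read in a given library. Intervals and limits of this kind cover counting error only.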
